A study of Mus musculus with 4 samples.

Results

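The mitochondrial respiratory chain and ATP synthase are built from subunits encoded partly in the nucleus and partly in mitochondrial DNA, and the nuclear-encoded ones are described here. They were chosen by gene name alone: genes named Nduf followed by a, b, c, s or v and a digit for complex I, Sdha to Sdhd for complex II, names starting with Uqcr for complex III, with Cox4 to Cox8 for complex IV and with Atp5 for complex V, leaving out 3 names that carry "-ps". The rule gave 78 genes of the 14683 named genes in the deposited RPKM values (reads per kilobase of transcript and per fixed library total). They divide into 36 genes of complex I, 4 of complex II, 8 of complex III, 13 of complex IV and 17 of complex V. Of the 78 genes, 75 reached 1 CPM (counts relative to a fixed library total, with TMM scaling between libraries) in at least 1 library and were tested among 12348 genes. The 3 that did not are Ndufs5, Cox7a1 and Atp5l. The names do not take in every nuclear-encoded subunit: Cyc1 and Ndufab1, a core subunit of complex III and the acyl carrier subunit of complex I, are named otherwise.

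The study sequenced mRNA of MLE-12, a mouse lung epithelial line immortalised with a viral large T antigen, in 4 libraries. They are wild-type cells left unscratched, wild-type cells 24 hours after a scratch wound, and the same pair from cells labelled Lingo1 KO. There is 1 library per condition, so no difference has a replicate check, and intervals cover counting error only. How the knockout was made, and whether it is 1 clone, is not given in the sources used here. The libraries held between 26903429 and 48333801 counts, the knockout-labelled scratched library being the deepest. Lingo1 mRNA stood at 46.4 and 42.9 CPM in the wild-type unscratched and scratched libraries and at 41.2 and 41.4 CPM in the knockout-labelled ones. The mRNA level therefore does not check the label, and those libraries are called knockout-labelled. Of the alveolar type 2 markers, Nkx2-1 (128 to 163 CPM) and Abca3 (165 to 185 CPM) were present in all 4 libraries, Sftpa1 and Sftpd were at 0, and Lamp3 stayed under 1 CPM. Of the epithelial markers, Cdh1 (712 to 859 CPM) and Krt8 (247 to 331 CPM) were high, Epcam was near 5.28 to 5.47 CPM and Krt18 was under 1 CPM.

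As background, complexes I and II pass electrons from NADH and succinate to ubiquinone, complex III hands them to cytochrome c, and complex IV passes them to oxygen. Complexes I, III and IV pump protons across the inner mitochondrial membrane, and complex V, the ATP synthase, uses the returning protons to make ATP. Core subunits form the catalytic centre of each complex, several of them binding flavin or iron-sulfur groups, while the supernumerary subunits around them serve assembly and stability. The nuclear transcription factor NRF1 and the ETS factor GABP are known for binding promoters of many of these genes.

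Promoter sequences bear on that background and were read from RefSeq (GRCm38.p6). Each window held 250 bases before and 50 bases after the start of the gene, and 65 of the 78 genes had an entry. For 50 of the 65 the bases after the start lay in a GENCODE transcript of the gene, so the other starts lack that check. NRF1 letters (GCATGCGC, on either strand) were present in 10 of the 65 windows (15.4%), against 3.05% of all 27025 genes in the table and 6.22% of the 9589 tested genes with an entry. In 8 of the 10 genes the letters lie before the RefSeq start, and these are shown so that the shared core can be compared. The capitals mark the motif letters, which run to 10 bases where the motif occurs on both strands and overlaps itself. For Ndufa8, on the minus strand, GENCODE starts the gene further upstream, at chr2:36049406. Its stretch (chr2:36049339-36049357) thus lies inside the gene as GENCODE annotates it. Uqcr11 and Uqcrc1 hold the letters after the start. The stretches are, on the strand of each gene:
Ndufa11: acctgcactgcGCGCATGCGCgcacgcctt
Ndufa6: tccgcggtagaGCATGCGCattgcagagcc
Ndufa8: tcgctggagacGCATGCGC
Sdhb: aagcccagtggGCATGCGCcctacgggccg
Cox6a1: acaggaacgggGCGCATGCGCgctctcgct
Atp5g2: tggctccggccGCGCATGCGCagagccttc
Atp5k: ctttcactgcgGCGCATGCGCctttctggc
Atp5l: aaccaataacGCATGCGCatttcccccac
The stretch of Sdhb lies at chr4:140961206-140961235 on the plus strand, 54 bases before the start counted to the first capital, and that of Atp5k at chr5:108434431-108434460 on the minus strand, 50 bases before it. The bases on either side of the capitals differ from gene to gene, and complex III has none in this set.

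The other 6 motifs searched were counted in the same windows. ETS letters (CCGGAAG) were present in 17 windows (26.2%), against 9.93% of all genes in the table and 20.9% of the tested genes, and YY1 letters (AAGATGGCG) in 7 (10.8%), against 1.64% and 3.74%. The ERR motif (TCAAGGTCA) was in 2 windows (3.08% against 0.466% and 0.313%), the CRE (TGACGTCA) in 4 (6.15% against 2.03% and 3.74%) and the E-box (CACGTG) in 6 (9.23% against 8.09% and 11.8%). SP letters (GGGCGG) were in 26 windows (40.0%), close to the 38.2% of the whole table and below the 70.6% of the tested genes. All motifs were searched on both strands, and a match is a description of the letters only. Only 5 genes held both NRF1 and ETS letters (Sdhb, Uqcr11, Cox6a1, Atp5k and Atp5l), and 43 held neither.

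Subunit mRNAs differed far more between genes than between libraries. In the wild-type unscratched library the median RPKM was 51.5 for complex I, 69.6 for complex II, 76.1 for complex III, 51.3 for complex IV and 88.8 for complex V. The order of all 78 genes by RPKM was nearly the same in every library, with Spearman's rho between 0.993 and 0.998 for the 6 library pairs, a description across genes that share annotation and length. All 78 together took 0.778% of the counts in the wild-type unscratched library, 0.848% in the wild-type scratched, and, in the knockout-labelled cells, 0.849% without and 0.865% with a scratch.

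The transcript with the highest RPKM of its complex was the same gene in all 4 libraries for each of the 5 complexes. Cox4i1, the largest nuclear-encoded subunit of cytochrome oxidase, stood at 497 and 570 RPKM in wild-type cells without and with a scratch, and at 538 and 537 RPKM in the same order in knockout-labelled cells; runs of 4 values below keep this order. Atp5b, the catalytic beta subunit of the ATP synthase, stood at 429, 479, 497 and 511 RPKM. Ndufa4, which the rule places in complex I by name although the protein is now counted with complex IV, stood at 227, 255, 231 and 231 RPKM. Uqcrh, the hinge protein of complex III, stood at 223, 256, 247 and 233 RPKM. Sdhd, a membrane anchor of complex II, stood at 103, 114, 113 and 116 RPKM. Each of these 5 had its lowest value in the wild-type unscratched library.

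At the low end of complexes II and III, Sdhc, the other anchor of complex II, stood at 29.9, 35.5, 33.0 and 33.7 RPKM, and Uqcrq at 32.3, 31.4, 29.5 and 33.3 RPKM. The low ends of the other complexes were Ndufs5 (0.183 to 0.327 RPKM), Cox7a1 (1.03 to 1.30 RPKM) and Atp5l (0.0397 to 0.159 RPKM), each under 1 CPM in all 4 libraries. Roles within a complex also differed in level. In the wild-type unscratched library the 7 core subunits of complex I had a median of 60.9 RPKM and its 29 supernumerary subunits 44.1 RPKM, but the order turns with the gene length used: per kb of the principal transcript the medians were 60.6 and 78.8 CPM, and per kb of the union of exons 34.7 and 37.0 CPM. In complex III the 3 subunits grouped as core had 50.7 and the 5 others 103 RPKM, and the others were also higher by both other lengths. That core group is wider than the catalytic subunits described above. In complex V the 4 peripheral stalk subunits had a median of 187 RPKM, the 5 subunits of the F1 head 100 RPKM, the 5 small membrane subunits 88.5 RPKM and the 3 genes of the c ring 22.9 RPKM. The c ring was lowest by all 3 lengths, while per kb of the union of exons the F1 head (90.7 CPM) stood above the stalk (73.7 CPM). The assignment of genes to these roles is textbook background.

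**Figure D1:**
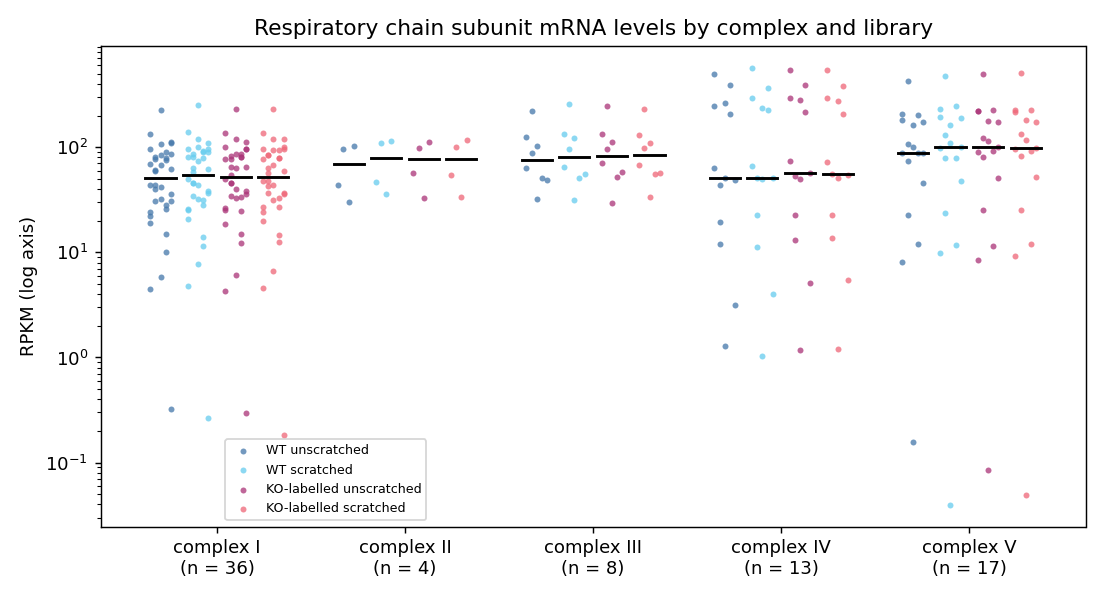
RPKM of each of the 78 genes (points, log axis) by complex and library, with black bars at the medians; KO-labelled marks the libraries labelled Lingo1 KO. The 4 medians of a complex lie close together (51.5 to 54.0 RPKM in complex I), while genes of complex V run from 0.159 to 429 RPKM in the wild-type unscratched library.

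Where a subunit is encoded by alternative genes, 1 of them supplied most of the mRNA. Of the 2 genes for cytochrome oxidase subunit 6A, Cox6a1, the widely expressed form, made up 98.6% to 99.2% of their summed RPKM. Cox6a2, the heart and muscle form, made up 0.807%, 1.07%, 1.29% and 1.40% in the 4 libraries, from 58, 76, 103 and 178 counts. For subunit 7A, Cox7a2 supplied 78.8% to 81.3%, Cox7a2l, which is known as a supercomplex assembly factor, 18.4% to 20.7%, and Cox7a1, the muscle form, 0.374% to 0.501%. Subunit c of the ATP synthase is encoded by 3 genes with the same mature protein: Atp5g3 supplied 82.9% to 84.1%, Atp5g2 11.7% to 12.1% and Atp5g1 3.96% to 4.99%. The order of Atp5g1 and Atp5g2 rests on length, since the RPKM values imply 4727 bases for Atp5g1 and 755 for Atp5g2: of the reads of the 3 genes Atp5g1 took 18.7% to 22.6% and Atp5g2 8.72% to 8.94%. Atp5g3 led by reads too, with 68.6% to 72.4%. Cox4i2, the form associated with low oxygen, had 3, 0, 5 and 3 counts against 10265 to 19772 for Cox4i1. Cox6b2, the testis form of subunit 6B, had 1 or 2 counts per library, and Cox8b and Cox8c, the muscle and testis forms of subunit 8, had 0 counts in all 4, where a count of 0 allows up to 0.111, 0.108, 0.101 and 0.0626 CPM. Ndufa4l2, a relative of Ndufa4 known to respond to low oxygen, had 0, 0, 1 and 3 counts. These 5 genes have no RPKM value in the deposited values and are not among the 78.

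Some low values belong to genes whose sequence is repeated elsewhere in the genome. Ndufs5, an intermembrane-space subunit of complex I at chr4:123712710-123718202 on the minus strand (GRCm38), had 6, 5, 6 and 6 counts. A processed pseudogene named Ndufs5-ps in the deposited values, at chr16:42955631-42955949 on the plus strand, had 395, 588, 446 and 861 counts, which is 98.5% to 99.3% of the reads of the pair. All 318 coding bases of Ndufs5 align with the pseudogene without a gap, 316 of them identical (99.4%). The first 120 coding bases hold both differences and are shown to let the pair be compared, with the differing bases in capitals:
Ndufs5: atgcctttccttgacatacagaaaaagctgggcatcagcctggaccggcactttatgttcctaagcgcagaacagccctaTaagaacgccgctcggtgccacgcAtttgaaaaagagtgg
Ndufs5-ps: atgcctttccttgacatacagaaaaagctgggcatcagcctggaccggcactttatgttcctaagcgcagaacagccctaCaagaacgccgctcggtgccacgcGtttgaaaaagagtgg
Reads from the shared part of such a pair may be split or set aside by alignment and counting, so the level of Ndufs5 in these files is uncertain. The level is uncertain too for Ndufa12, an accessory subunit of complex I, with 558, 541, 606 and 976 counts. Its copy Ndufa12-ps held 285, 347, 366 and 551 counts, 33.8% to 39.1% of the pair, and shares 26.2% of the stretches of Ndufa12. Atp5pb, a stalk subunit, had 5086 to 9920 counts and its copy Atp5pb-ps 5 to 16.

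Atp5l, the g subunit of the ATP synthase, is the other extreme. It had 27, 7, 16 and 15 counts, and 84.8% of the 50-base stretches of its principal transcript also occur in transcripts of 14 other genes, 12 of them pseudogenes. Its length implied by the RPKM values was 6326 bases, against 544 bases of its principal transcript, which lowers the RPKM further. Atp5g2 shared 87.4% of its stretches with 2 pseudogenes and still reached 22.9 RPKM. Over the 78 genes, 31 shared no 50-base stretch with another gene and 29 shared more than 10% of them. The 31 had a median of 69.0 RPKM in the wild-type unscratched library and the 29 a median of 44.1 RPKM.

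**Figure D2:**
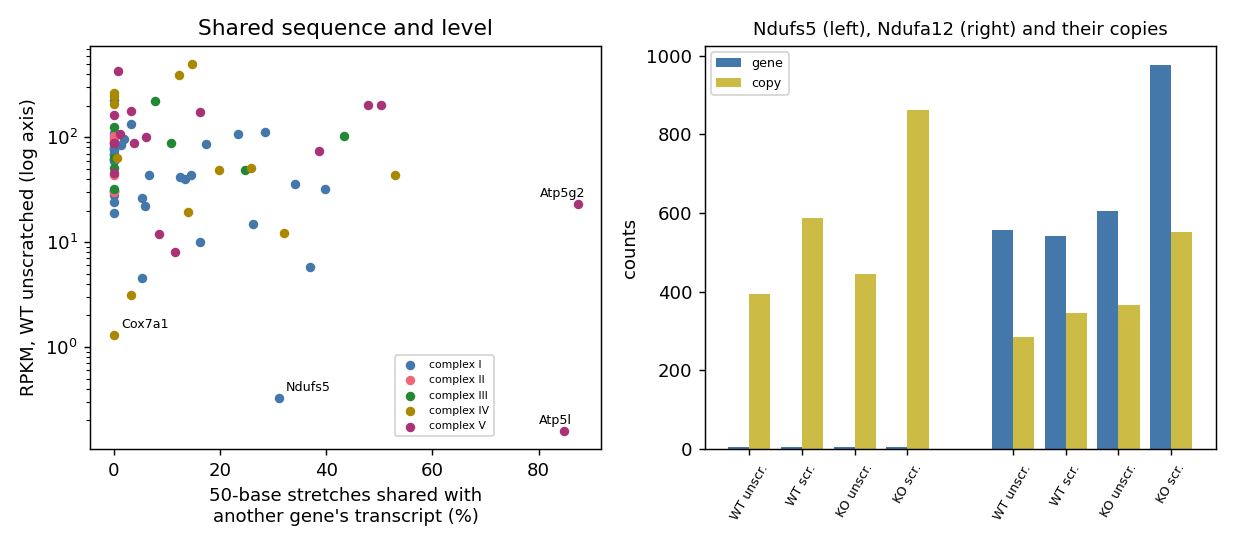
Left, share of each gene's 50-base stretches found in transcripts of other genes (x axis, %) against RPKM in the wild-type unscratched library (log axis), coloured by complex. Right, counts of Ndufs5 and Ndufa12 (blue) and of their processed copies (yellow) in the 4 libraries; the copy of Ndufs5 held 395 to 861 counts where the gene held 5 or 6.

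The first comparison asks how knockout-labelled cells differed from wild-type cells before wounding. The subunit mRNAs were shifted slightly upward in the knockout-labelled library and few of them by much. The median log2 difference in CPM of the 75 tested genes was 0.11 (1.08-fold), beside 0.01 for all 12348 tested genes, and 62 of the 75 were above 0. By complex the median was 0.05 for complex I, 0.14 for complex II, 0.12 for complex III, 0.17 for complex IV and 0.14 for complex V. A gene was called when the higher CPM exceeded the lower by at least 25%, with a 95% exact Clopper-Pearson interval of the ratio off 1. By that rule 2 of 75 genes were higher, Sdha and Cox6a2, and 0 were lower, while 8.92% of all tested genes were called higher and 7.52% lower. At 2-fold, either way, none of the 75 was called, against 2.22% of all tested genes.

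After scratching, the same comparison of genotypes gave a median of 0.01 for the 75 genes and 0.00 for all tested genes, with 41 of the 75 above 0. The medians of complexes I and II were both -0.02, and those of complexes III, IV and V were 0.05, 0.08 and 0.05. Cox6a2 was called higher and no gene lower, against 7.22% of all tested genes called higher and 5.43% lower. None was called at 2-fold, against 1.90% of all tested genes. Cox6a2 was the 1 gene called in both comparisons of genotype.

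Complex II shows how subunits of 1 enzyme differed. Sdha, the flavin-binding catalytic subunit, stood at 125, 136, 163 and 158 CPM. Its iron-sulfur partner Sdhb stood at 118, 136, 120 and 123 CPM. The ratio of knockout-labelled to wild-type was 1.30 (95% interval 1.246 to 1.36) for Sdha and 1.02 (0.976 to 1.07) for Sdhb without a scratch, and 1.17 (1.12 to 1.21) and 0.905 (0.869 to 0.943) with one. Both knockout-labelled libraries were above both wild-type libraries for Sdha, while for Sdhb they lay between them; the difference between these 2 genes was not tested.

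**Figure D3:**
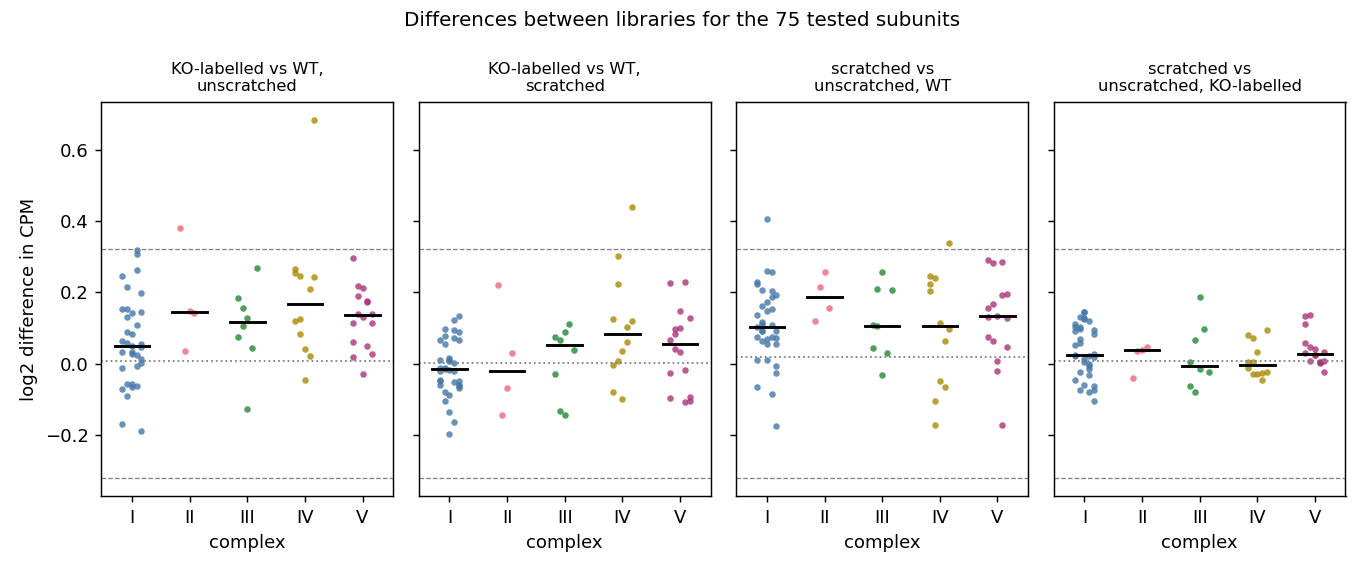
Log2 difference in CPM of the 75 tested genes in the 4 comparisons, by complex; black bars are medians, the dotted line is the median of all tested genes and dashed lines mark the 25% limit either way. Most points lie above the dotted line in the panels for unscratched cells and for the wild-type scratch, which share the wild-type unscratched library, and the medians of the 75 genes are 0.11, 0.01, 0.11 and 0.02 from left to right.

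An additive model with a genotype and a scratch term over all 4 libraries (edgeR quasi-likelihood test, Benjamini-Hochberg adjustment over all tested genes) gave a secondary view. It rests on 1 residual degree of freedom, so its p-values compare these 4 libraries. By its genotype term 9 of the 75 genes rose and 0 fell, while 13.8% of all tested genes rose and 12.2% fell. The share of members that rose was close to that background. They were 3 genes of complex I, 1 of complex II, none of complex III, 4 of complex IV and 1 of complex V. An unadjusted p under 0.05 was reached by 24 of the 75 genes (7 of 35, 1 of 4, 2 of 8, 7 of 12 and 7 of 16 from complex I to V), against 36.4% of all tested genes. DESeq2 on the same design called 2 of the 9, Sdha and Atp5a1, against 4.54% of all tested genes that rose by it, and total-count scaling called 6 members. The split by complex moved as well: complex IV had 4 genes in the main model, 2 with total counts, 2 with no CPM filter, 3 with at least 5 CPM and 0 with DESeq2, and complex V had 1, 1, 3, 2 and 1.

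In complex II, Sdha rose by 0.30 ± 0.06 (SE) on the log2 scale (edgeR adjusted p = 0.000458). Atp5a1, the alpha subunit of the F1 head, stood at 479, 524, 589 and 613 CPM and rose by 0.26 ± 0.06 (edgeR adjusted p = 0.00163). Both knockout-labelled values of Atp5a1 exceeded both wild-type values. The same held for its catalytic partner Atp5b, at 818, 918, 951 and 982 CPM, with a genotype term of 0.16 that did not pass (edgeR adjusted p = 0.0693).

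Complex IV had 4 genes that rose, all supernumerary, as its nuclear-encoded subunits are. Cox6a2, at chr7:128205435-128206387 on the minus strand, stood at 2.14, 2.72, 3.48 and 3.72 CPM and rose by 0.56 ± 0.18 (edgeR adjusted p = 0.0214). The ratio of knockout-labelled to wild-type was 1.63 (95% interval 1.17 to 2.28) without and 1.36 (1.04 to 1.81) with a scratch. It is the least abundant tested member by CPM, it overlaps the opposite-strand gene Itgad, and the strand setting of the counting is not given in the sources used here. Cox7b stood at 62.6, 66.9, 74.0 and 72.8 CPM and rose by 0.18 ± 0.05. Cox7c stood at 31.0, 36.2, 37.3 and 39.5 CPM and rose by 0.19 ± 0.07, with 53.0% of its stretches shared with pseudogenes. Cox7a2l stood at 54.9, 57.4, 63.5 and 61.6 CPM and rose by 0.15 ± 0.05. It shares 19.8% of its stretches with the processed pseudogene Gm6969. That copy had 365, 453, 502 and 787 counts, beside 1489, 1600, 1880 and 2949 for Cox7a2l. The edgeR adjusted p of Cox7b, Cox7c and Cox7a2l was 0.0113, 0.0421 and 0.0322.

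Complex I had 1 core subunit and 2 others that rose. Ndufs1, the large iron-sulfur core subunit, stood at 58.7, 68.8, 69.6 and 72.1 CPM and rose by 0.15 ± 0.05 (edgeR adjusted p = 0.0363). Its value in the wild-type scratched library was within 1 CPM of the knockout-labelled unscratched one. Ndufs4, a subunit whose loss is known to cause a mitochondrial encephalopathy, stood at 47.7, 53.0, 57.2 and 56.6 CPM and rose by 0.18 ± 0.06 (edgeR adjusted p = 0.0237). Ndufb5, a membrane-arm subunit, stood at 31.1, 35.8, 38.5 and 39.0 CPM and rose by 0.21 ± 0.07 (edgeR adjusted p = 0.0267). It overlaps the opposite-strand gene Mrpl47, with which it shares 16.2% of its stretches. All 9 genes had their lowest value in the wild-type unscratched library.

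Of the 9 genes, Cox7b is shown as one that rose and whose 250 bases before the start hold none of the 7 motifs and no annotated exon (chrX:106015450-106015699, plus strand, in lower case throughout because no motif was found):
Cox7b: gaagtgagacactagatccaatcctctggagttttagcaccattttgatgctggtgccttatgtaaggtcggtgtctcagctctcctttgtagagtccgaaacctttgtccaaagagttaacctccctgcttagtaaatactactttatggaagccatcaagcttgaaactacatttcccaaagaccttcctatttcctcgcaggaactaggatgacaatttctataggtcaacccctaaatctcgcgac
The 9 tested genes with NRF1 letters had a median knockout-labelled difference of 0.04 without a scratch, and the 53 tested genes with an entry but no such letters had 0.08. For ETS letters the medians were 0.07 over 16 genes and 0.08 over 46.

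**Figure D4:**
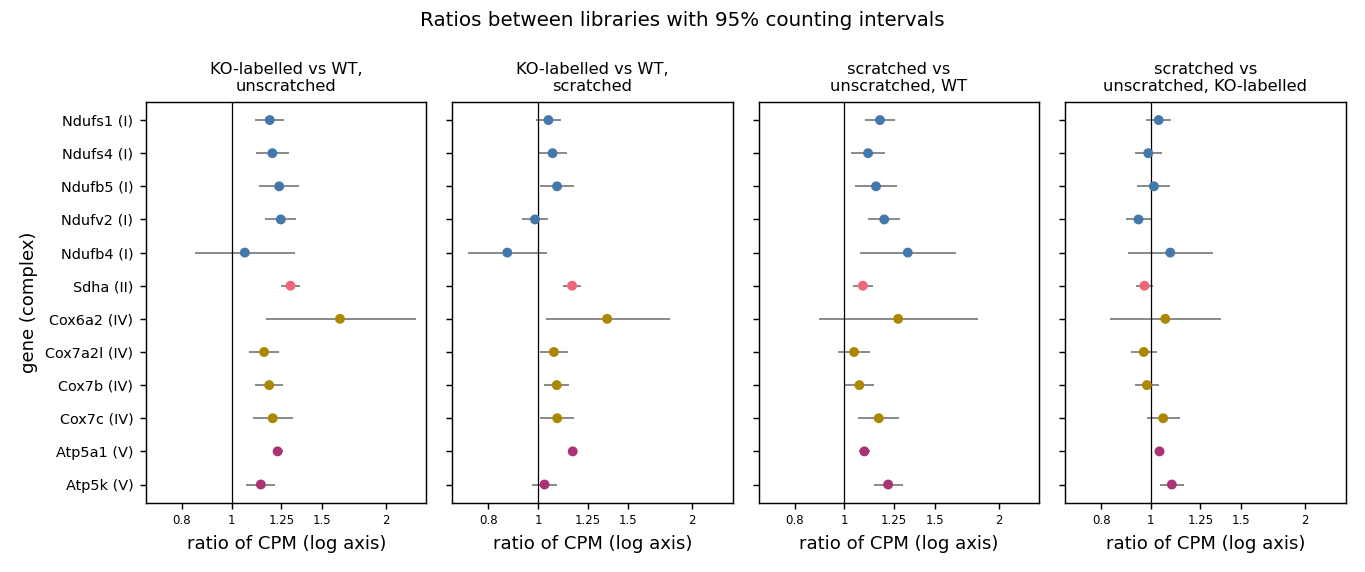
Ratio of CPM (points, log axis) with 95% exact Clopper-Pearson intervals for counting error (bars) in the 4 comparisons, for the 12 genes on the vertical axis, coloured by complex. Cox6a2 (2.14 to 3.72 CPM) and Ndufb4 (5.61 to 7.46 CPM) have the widest intervals, and the points of the right-hand panel lie between 0.946 and 1.10.

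Some markers differed with the knockout label, and others of the same lists did not. Sftpb stood at 25.4, 22.9, 107 and 93.5 CPM, Sftpc at 5.68, 6.42, 20.6 and 19.8 CPM and Krt8 at 247, 258, 328 and 331 CPM. The log2 genotype difference without and with a scratch was -0.14 and -0.15 for Cdh1 and -0.25 and 0.04 for Nkx2-1. It was 0.08 and 0.09 for Abca3 and 0.01 and -0.01 for Epcam, and none of these was called. Of 4 fibroblast genes, Col1a1 stood at 21.2, 16.5, 197 and 177 CPM, Pdgfra at 1.29, 1.15, 2.30 and 1.94 CPM, Dcn at 2846, 2819, 2710 and 2481 CPM, and Col1a2 was at or near 0. The summed CPM of the fibroblast list was 2660 to 2909 over the 4 libraries, and the summed CPM of the type 2 list 323 and 370 in wild-type and 421 and 450 in knockout-labelled libraries. Of the 2 endothelial and 2 leukocyte genes, Cdh5 and Ptprc were at 0, Pecam1 was under 0.3 CPM and Cd68 was at 1.57 to 1.90 CPM. The part of these differences in the subunit values was not tested, and in bulk RNA more cells of a kind and more RNA per cell cannot be told apart.

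The scratch comparison asks how cells differed 24 hours after wounding. In wild-type cells the subunit mRNAs were slightly higher after the scratch, with a median log2 difference of 0.11 for the 75 genes beside 0.02 for all tested genes, and 63 of 75 above 0. The complexes had similar medians: 0.10 for I, 0.19 for II, 0.11 for III, 0.11 for IV and 0.13 for V. Ndufb4, a membrane-arm subunit of complex I named here because it was the 1 gene called, was higher at 1.33-fold (95% interval 1.07 to 1.65), and 0 genes were called lower. Of all tested genes 2.28% were called higher, 4.14% lower and 0.826% at 2-fold either way, the last with none among the 75. Ndufb4 stood at 5.61, 7.46, 5.95 and 6.49 CPM and shares 37.0% of its stretches with 3 pseudogenes.

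In knockout-labelled cells the scratch comparison gave a median of 0.02 for the 75 genes and 0.01 for all tested genes. By complex it was 0.02, 0.04, -0.01, -0.00 and 0.03 from I to V. No gene was called higher, lower or at 2-fold, against 1.47%, 2.16% and 0.275% of all tested genes. By the scratch term of the additive model 1 of 75 genes rose and 0 fell, while 1.47% of all tested genes rose and 1.44% fell (edgeR quasi-likelihood test). With an unadjusted p under 0.05 there were 15 of 75, against 16.2% of all tested genes. The gene that rose was Atp5k, the small e subunit in the membrane part of the ATP synthase. It stood at 60.1, 73.2, 68.5 and 75.3 CPM, higher after the scratch in both genotypes, with a scratch term of 0.21 ± 0.05 (edgeR adjusted p = 0.0291). DESeq2 on the same design called 0 of the 75, with 1 at an unadjusted p under 0.05, against 0.154% of all tested genes that rose and 3.73% at an unadjusted p under 0.05.

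Whether the scratch difference itself differed between genotypes was read as the difference of the 2 log2 values with a 95% counting interval. The median over the 75 genes was -0.11, beside -0.01 for all tested genes, and 57 of 75 were below 0. By complex it was -0.07, -0.17, -0.11, -0.13 and -0.09. No gene was called higher and 1 lower, against 3.07% and 2.03% of all tested genes. That gene was Ndufv2, the small iron-sulfur subunit of the NADH-oxidising module of complex I, at -0.34 (95% interval -0.47 to -0.21). It stood at 51.9, 62.1, 64.7 and 61.2 CPM: the wild-type unscratched library was the low one and the other 3 lay within 4 CPM of each other. Its upstream window (chr17:66101560-66101809, minus strand) holds 2 SP motifs, in capitals, and no other motif searched:
Ndufv2: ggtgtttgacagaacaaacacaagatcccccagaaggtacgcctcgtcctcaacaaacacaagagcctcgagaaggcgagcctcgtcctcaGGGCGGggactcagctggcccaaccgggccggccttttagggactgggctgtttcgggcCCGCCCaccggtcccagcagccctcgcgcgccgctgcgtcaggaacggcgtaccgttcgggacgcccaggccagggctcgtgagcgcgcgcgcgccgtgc

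These comparisons share 1 library. The wild-type unscratched library is the baseline of the unscratched genotype comparison and of the wild-type scratch comparison, and it enters the difference of differences, so a low value there moves all 3. It held the lowest CPM of 53 of the 75 genes, while 31.9% of all tested genes were lowest there. By complex it was the lowest for 20 of 35 genes of complex I, 4 of 4 of complex II, 7 of 8 of complex III, 8 of 12 of complex IV and 14 of 16 of complex V. Of the other 22 genes, 7 were lowest in the wild-type scratched, 11 in the knockout-labelled unscratched and 4 in the knockout-labelled scratched library. The spread was small: the highest and lowest library differed by a median of 1.14-fold for the 75 genes and 1.19-fold for all tested genes, whose counts are lower, and by under 25% for 68 of the 75 (90.7%) against 64.6% of all. The steadiest member was Atp5md, a small membrane subunit of the ATP synthase, at 1.03-fold.

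Subunits encoded in mitochondrial DNA stood the other way in that library. Of the 13, 7 had counts and 6 were listed at 0 in all 4 libraries (mt-Nd3, mt-Nd4l, mt-Co2, mt-Co3, mt-Atp6 and mt-Atp8). No source used here says whether the counting set these 6 aside, so their 0 is not read as a level and the sum covers the other 7. The 7 summed to 9550 CPM in the wild-type unscratched library and to 6856, 6777 and 7680 CPM in the other 3, in the order used above. Their median difference was -0.51 for knockout-labelled against wild-type without a scratch and -0.42 for the scratch in wild-type cells, with 7 of 7 called lower in both, which share the wild-type unscratched library; of all tested genes 7.52% and 4.14% were called lower. With a scratch the median genotype difference was 0.04, and the median scratch difference in knockout-labelled cells was 0.21. In each of these 1 of the 7, mt-Nd1, was called higher (0.59 and 0.34) and 0 lower, against 7.22% and 1.47% of all tested genes called higher. By the genotype term of the additive model mt-Nd4, mt-Nd5, mt-Nd6 and mt-Cytb fell by 0.27, 0.28, 0.30 and 0.23 (edgeR adjusted p = 0.0134, 0.0156, 0.0107 and 0.0422). Whether these values and those of the nuclear-encoded subunits are related was not tested.

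**Figure D5:**
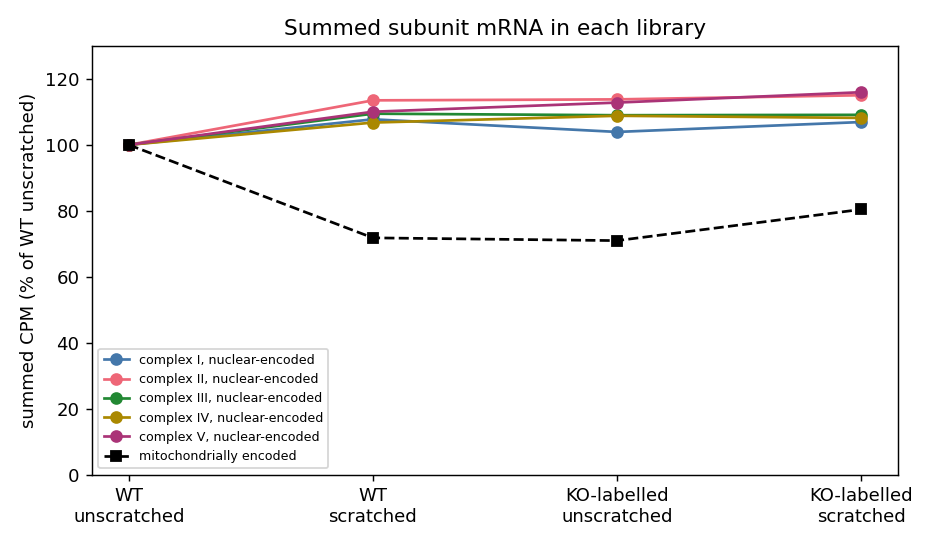
Summed CPM of the nuclear-encoded subunits of each complex (circles) and of the 7 counted mitochondrially encoded subunits (squares, dashed), as a percentage of the wild-type unscratched library. The nuclear-encoded sums of the other 3 libraries lie above 100%, and the mitochondrially encoded sum lies below it.

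Genes around the chain gave a mixed picture by the genotype term of the additive model. Of 13 tested enzymes of the citric acid cycle, which feeds the chain with electrons, 8 rose and 0 fell, beside the 13.8% of all tested genes that rose and the 12.2% that fell by this term. The largest terms were those of Suclg2, a subunit of succinyl-CoA ligase (142, 161, 256 and 540 counts, 0.86, edgeR adjusted p = 3.1e-06), and Fh1, fumarate hydratase (0.34, edgeR adjusted p = 0.000194). Suclg1, Idh3b, Dld, Cs, Dlst and Ogdh rose by 0.25, 0.21, 0.20, 0.19, 0.19 and 0.18. Among 14 carriers and related genes 4 rose and 0 fell: Slc25a5, an ADP/ATP carrier, by 0.41, Vdac1 by 0.21, Slc25a3, the phosphate carrier, by 0.20 and Vdac2 by 0.19. Slc25a5 also rose with the scratch term (0.32, edgeR adjusted p = 0.0021).

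Beside the same 13.8% and 12.2% of all tested genes, assembly factors changed in small numbers. For complex I, 1 of 17 rose, Nubpl, which delivers iron-sulfur clusters to complex I, by 0.72 (141, 130, 231 and 400 counts, edgeR adjusted p = 8.63e-05). For complex III, 1 of 5 rose (Uqcc1, 0.18), and for complexes II and V 0 of 4 and 0 of 5 rose or fell. For complex IV, 1 of 21 rose (Cox15, a haem A synthase, 0.14) and 2 fell: the copper chaperone Cox17 by 0.38 and Coa7 by 0.28. Lrpprc, which stabilises mitochondrial mRNAs, rose with the scratch term (0.22, edgeR adjusted p = 0.013). Of 14 regulators of mitochondrial gene expression, the coactivator Ppargc1a rose by 0.56 from 99, 119, 182 and 269 counts (edgeR adjusted p = 0.00413), and Gabpb1, the beta subunit of GABP, fell by 0.21 (edgeR adjusted p = 0.0161). The mRNAs of the motif-binding factors named above had genotype terms that did not pass: -0.03 for Nrf1, -0.13 for Gabpa, -0.01 for Yy1 and 0.23 for Esrra.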

How the data were processed

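RNA from 4 MLE-12 libraries, 1 per condition, was compared. The authors deposited raw read counts for 46078 Ensembl genes and RPKM values for 14844 genes, of which 161 hold no value. Per the submitters' processing notes the build is mm10 and the tools include HTSeq 0.11.3, STAR 2.7.9a, edgeR 3.32.1 and Trimmomatic 0.39, with no role stated. The sources used here give neither annotation release nor strand setting. Genotype and the letter for scratch in the column names identified the libraries; the other letter was taken to mean unscratched. The members, lists and rules were chosen with earlier results of these data known; the role groups, the shared-stretch measure, the principal-transcript lengths and the shares of reads were added after the values were seen.

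Levels between genes use the authors' RPKM. Differences use the deposited counts, scaled with TMM factors of 0.991 to 1.007, for genes with at least 1 CPM in at least 1 library. Log2 differences carry a prior count of 2. A call needed the higher CPM to exceed the lower by 25% (2-fold also given), with a 95% exact Clopper-Pearson interval of the count split off 1; the difference of scratch differences used a 95% Poisson interval of the log counts. The additive model used edgeR 4.0.16 quasi-likelihood tests in R 4.3.3, with a threshold of 0.05, and DESeq2 1.42.0 as an alternative. Intervals cover counting error only, and reads carry no molecular identifiers. Floors are 3 counts per library. Genes were named when called in both comparisons of genotype or of scratch, passing the additive model, called for the difference of scratch differences, highest or lowest in RPKM of their complex, alternative isoforms, or under 1 CPM; genes of the other lists when passing the additive model. Sdhb, Atp5b, Ndufb4, Atp5md, mt-Nd1 and the genes with copies were named after their values were seen. Positions and the shared 50-base stretches come from GENCODE M21 (GRCm38), promoters from RefSeq, matched by symbol. Interval and model scripts were tested on simulated counts. Alternatives were total-count and DESeq2 scaling, RPKM with a pseudocount of 0.1, a prior count of 0.5, at least 5 CPM, no CPM filter, 1.5-fold, removal of a length trend, other gene lengths and leaving out members with shared stretches.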

Additional observations from a re-analysis of the deposited data

Results flagged for a closer look

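Processed copies named with "-ps" carried reads although the comparisons of members leave them out: in the wild-type unscratched library Ndufs5-ps had 395 counts, Ndufa12-ps 285 and Atp5pb-ps 8, each above the limit of 3 counts. Copies without such a name also carried reads, among them Gm6969, a copy of Cox7a2l, with 365 counts in that library. Ndufv2 differed between the genotypes in its scratch difference, by -0.34 on the log2 scale, beyond its counting interval but with no replicate to test it.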

How the results depend on the processing

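The medians of the 75 genes kept within the spread of the main values under every scaling, prior count, filter, length correction and source tried, and no called value reversed. The median of the unscratched genotype comparison ran from 0.08 to 0.11, and that of the scratched one, 0.01, was -0.00 with total counts and without genes that share stretches. Counts of called genes are small and moved. In the unscratched genotype comparison 1 gene instead of 2 was called higher with at least 5 CPM and at 1.5-fold. In the scratched one 0 instead of 1 were called in both settings, since Cox6a2 stays under 5 CPM. For the scratch in wild-type cells, 0 genes instead of 1 were called higher at 1.5-fold and without the 29 genes that share over 10% of their stretches (an alternative added after seeing the data), and 1 instead of 0 lower with total counts, with no CPM filter and with RPKM. The genotype term called 2 genes with DESeq2 instead of 9. The scratch term called 0 with total counts, 2 with no CPM filter and 0 with DESeq2 instead of 1. Median levels in the wild-type unscratched library moved with gene length: per kb of the union of exons, complex II stood at 41.4 and complex V at 56.2 CPM, and per kb of the principal transcript complex V stood at 162 CPM (added after seeing the data). The cause was not tested. Leaving out a library was not run, since the additive model then has no residual degrees of freedom. No paired analysis was possible because each condition has 1 library and the labels carry no replicate numbers.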
